A study of Rattus norvegicus with 24 samples.

Results

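The genes of the Wnt, bone morphogenetic protein (BMP) and transforming growth factor beta (TGF-beta) pathways were read in lung and blood of rats after inhalation of crystalline silica. They were chosen by gene name, with earlier results of these data known. The rule took symbols that start with TGFB, ACVR or INHB, and the ID genes. It took symbols that start with WNT, FZD, SFRP, DKK, SMAD or LTBP and a digit, or with BMP and a digit or an R. It also took Nog, Grem1, Fst, Lrp5, Lrp6, Axin1 and Axin2. The rule found 81 genes, with 1 row each, among the 21792 rows of the array tables. Of these, 80 carried a current RefSeq symbol and 1 an older synonym, now Acvr2a.

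Silica rats breathed crystalline silica at 15 mg/m3, 6 h a day for 5 days, and air rats breathed air. All 12 rats were male, of the strain labelled CDF Fisher 344, and tissue was taken 32 weeks after the exposure. The label for age is 3 months and does not name the time it refers to. Lung and blood RNA of 6 silica and 6 air rats were read on 24 Illumina BeadChip arrays, and rats are numbered 1 to 6 within a group.

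Wnt proteins are secreted ligands that bind Frizzled receptors, often with LRP5 or LRP6, and either stabilize beta-catenin or act without it. BMPs and TGF-betas bind pairs of type I and type II receptor kinases that phosphorylate SMAD proteins, while secreted antagonists such as noggin hold BMPs away from their receptors and LTBPs store latent TGF-beta in the matrix. In the lung these pathways are known for shaping airways and alveoli, for the upkeep of vessels and for fibrosis.

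Promoters are shown for 4 genes that differed between the groups in lung. They are Axin2, a common readout of beta-catenin signalling, the receptors Fzd1 and Bmpr2, and the BMP antagonist Nog. RefSeq windows on GRCr8 matched 64 of the 81 genes and 10 of the 13 called in lung. Each sequence is the 250 bases before the annotated start, 5′ to 3′ on the strand of the gene. Axin2 is at chr10:94398535-94398784 on the plus strand, Fzd1 at chr4:30264824-30265073 on the plus strand, Bmpr2 at chr9:68686566-68686815 on the plus strand and Nog at chr10:74627502-74627751 on the minus strand. Capitals mark the TCF/LEF core (CTTTGAA or CTTTGAT or CTTTGTA or CTTTGTT), the SMAD box (GTCTG, read as CAGAC on the other strand) and a GC-rich BMP element (GGCGCC). Both strands were searched, and no matches overlap here.
Axin2: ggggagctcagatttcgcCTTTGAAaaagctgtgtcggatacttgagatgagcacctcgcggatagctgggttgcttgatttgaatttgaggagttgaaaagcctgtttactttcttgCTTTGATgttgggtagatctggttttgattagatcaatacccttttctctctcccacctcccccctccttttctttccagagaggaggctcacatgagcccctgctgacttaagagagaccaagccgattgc
Fzd1: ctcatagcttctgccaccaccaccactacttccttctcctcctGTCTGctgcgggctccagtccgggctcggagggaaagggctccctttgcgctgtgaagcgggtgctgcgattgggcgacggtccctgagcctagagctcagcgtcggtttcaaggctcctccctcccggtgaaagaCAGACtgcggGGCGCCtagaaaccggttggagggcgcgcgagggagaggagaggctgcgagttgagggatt
Bmpr2: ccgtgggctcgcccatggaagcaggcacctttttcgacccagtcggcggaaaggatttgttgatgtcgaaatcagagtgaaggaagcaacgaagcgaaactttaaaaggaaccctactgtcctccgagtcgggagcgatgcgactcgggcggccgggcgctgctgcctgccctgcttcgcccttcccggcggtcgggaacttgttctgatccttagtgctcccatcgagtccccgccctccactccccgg
Nog: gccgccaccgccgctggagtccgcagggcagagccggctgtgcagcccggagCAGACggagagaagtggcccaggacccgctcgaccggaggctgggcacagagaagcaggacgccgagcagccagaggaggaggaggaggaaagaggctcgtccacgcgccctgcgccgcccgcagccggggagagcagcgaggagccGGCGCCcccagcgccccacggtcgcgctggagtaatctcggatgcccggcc

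The Axin2 window held 2 TCF/LEF cores, starting 232 and 132 bases before the start of the gene. Fzd1 held 2 SMAD boxes and 1 GC-rich element, Nog 1 SMAD box and 1 GC-rich element, and Bmpr2 no match. A TCF/LEF core was in 14.9% of all 33469 windows and in 15.6% of the 64 members' windows, a SMAD box in 42.9% and 28.1%, and the GC-rich element in 8.69% and 26.6%. The 33469 windows were not limited to genes on the array, while each member counted with 1 window, so the 2 sets are not alike. Of the 9 genes lower in silica lungs that had a window, 2 held a TCF/LEF core, 3 a SMAD box and 2 the GC-rich element. A match is a description of letters and not a measured site.

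Values are log2 intensities after background correction, an added offset of 16 and quantile normalization within a tissue, so fold changes of dim genes are understated. A probe was detected on an array at a detection p under 0.05, and tested where detected on at least 6 of the 12 arrays of a tissue. Groups were compared with limma over all tested probes, and a gene was called at a Benjamini-Hochberg adjusted p under 0.05. Errors are standard errors of the log2 fold change, silica minus air, with 6 rats a group. Detected probes numbered 11013 to 11733 per lung array and 7498 to 8469 per blood array. In lung the first principal component (40.3% of the variance) separated the groups, and in blood silica rat 6, air rat 2 and air rat 6 stood apart on it. All 8 alveolar type 2 markers were tested in lung, and 7 of the 8, Sftpc among them, were on no blood array. Of the 81 members, 58 were tested in lung and 23 were too dim, 11 of them on no lung array. In blood 19 were tested, all of them among the 58, and 35 were on no array.

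In silica lungs 12 of the 58 tested members were lower than in air lungs, and 1 was higher. The ligands Wnt5a, Wnt2, Bmp2, Bmp6 and Bmp7, the receptors Fzd1, Bmpr2, Acvrl1 and Acvr2b, the binding proteins Ltbp1 and Ltbp4, and Axin2 fell. Nog, which encodes the BMP antagonist noggin, rose. In whole lung RNA, fewer cells of a type and less RNA per cell cannot be told apart. The changes ran to 1.41-fold lower and 1.54-fold higher. Over all 11285 tested probes 16.7% were called, 8.72% lower and 7.96% higher, while the lower members were 20.7% of those tested and the higher one 1.72%. The median log2 fold change was -0.08 over the members and -0.02 over all probes. Of the 58, 39 were below 0, against 55.6% of all probes, and 23 had an unadjusted p under 0.05, against 29.4% of all probes. Every silica rat was below every air rat for 3 of the 58, against 3.81% of all probes. Every silica rat was above every air rat for 1 of the 58, against 4.3% of all probes.

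**Figure D1:**
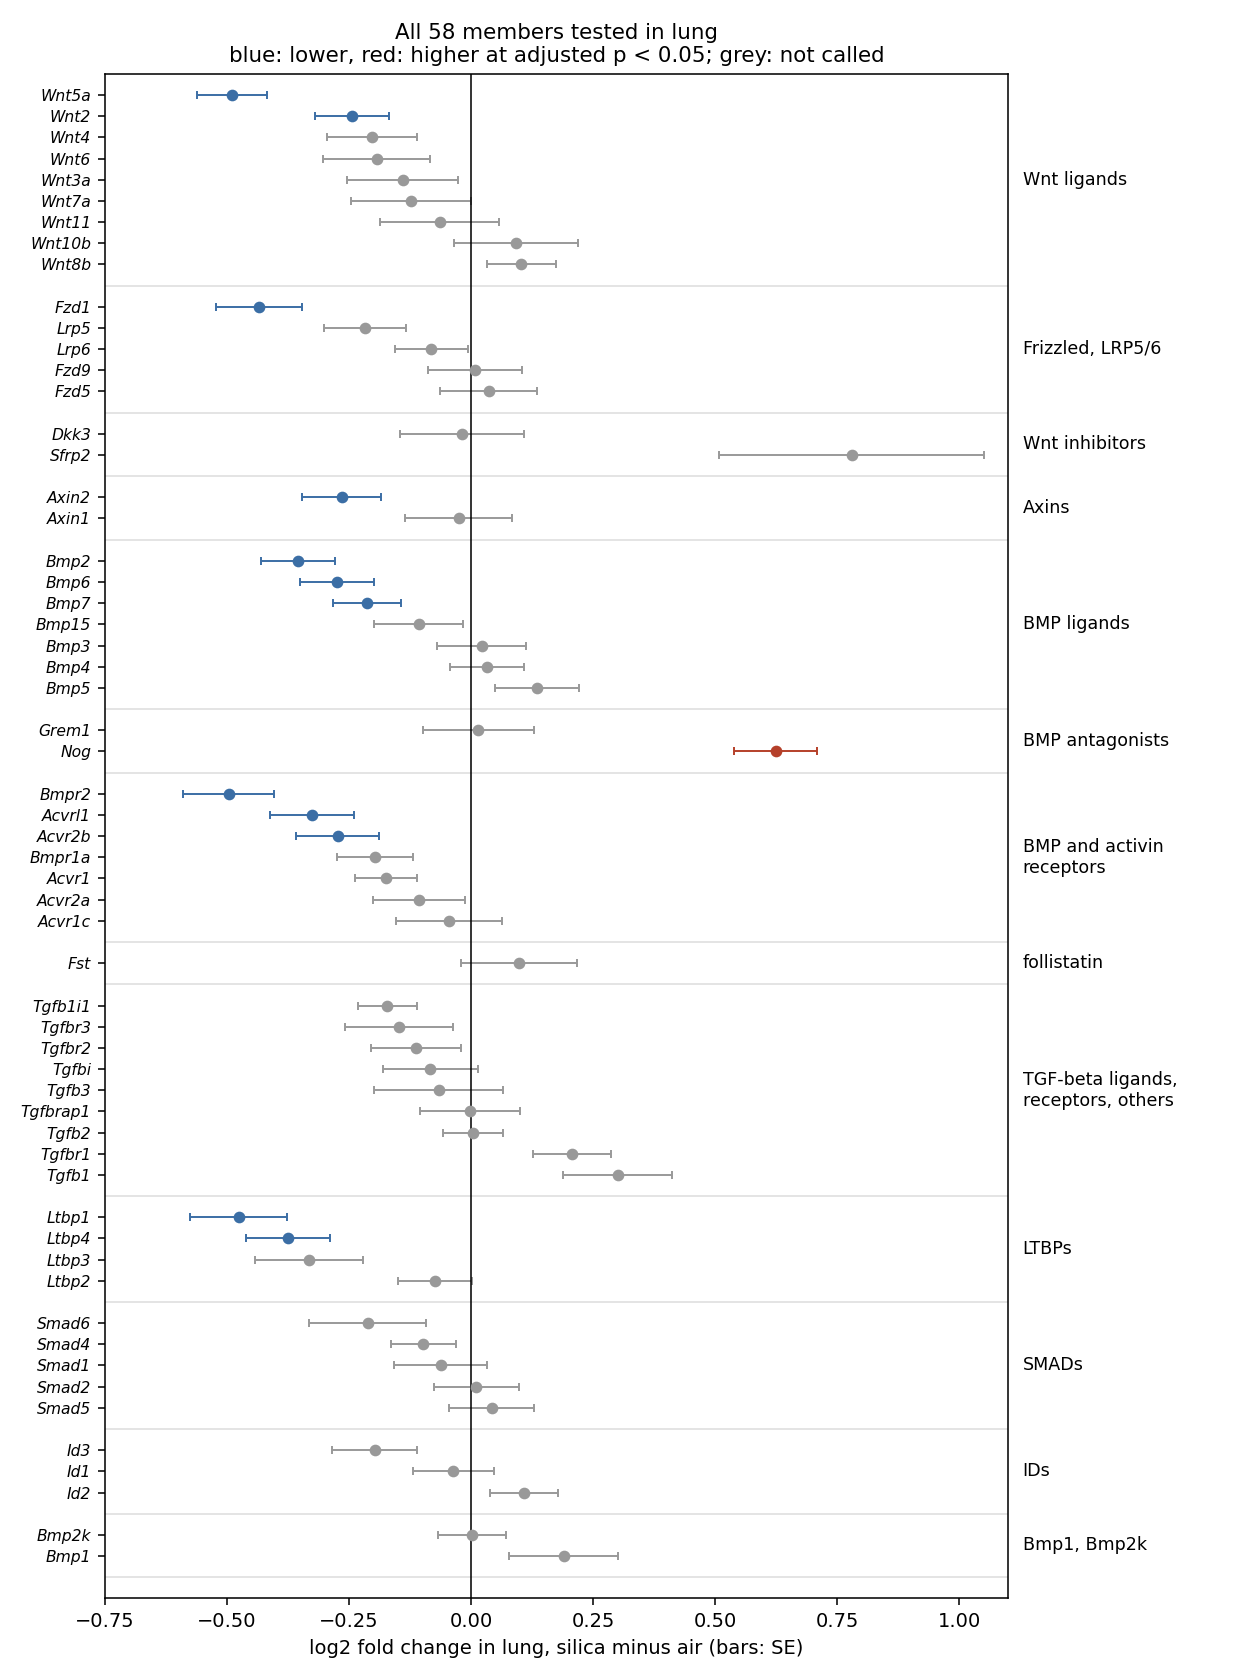
Log2 fold change in lung, silica minus air, of the 58 tested members by role, with standard errors (n = 6 rats per group); blue and red points were called lower and higher, grey points were not called. All 7 BMP and activin receptors and all 4 LTBPs lie below 0, and Nog lies at 0.62.

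Of the 9 tested Wnt ligands 2 fell, and the median over the 9 was -0.14. Wnt5a, which acts mainly without beta-catenin, had lowest, median and highest log2 intensities of 6.42, 6.49 and 6.75 in silica lungs, against 6.92, 6.98 and 7.18 in air lungs. Every silica rat was below every air rat, as for 3.81% of all tested probes. Its log2 fold change was -0.49 ± 0.0717 (limma adjusted p 0.000414). Wnt2, a mesenchymal ligand with a role in mouse lung formation, had 7.21, 7.44 and 7.62 in silica lungs, against 7.57, 7.70 and 7.77 in air lungs. Silica rats 1 and 2 lay inside the air range, and the difference was -0.24 ± 0.0756 (limma adjusted p 0.039). That call was lost without silica rat 3, 4 or 5 or air rat 1, 3, 4 or 6, at adjusted p values of 0.0646 to 0.0844.

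The other 7 tested Wnt ligands were not called. Among them Wnt4, a ligand needed for kidney formation in the mouse, had a log2 fold change of -0.20 ± 0.0923 (limma adjusted p 0.157) and Wnt6 of -0.19 ± 0.109 (limma adjusted p 0.264), and Wnt3a, Wnt7a, Wnt11, Wnt10b and Wnt8b lay between -0.14 and 0.10. Another 10 Wnt ligands were too dim to test, 4 of them on no lung array. Wnt2b was detected on 0 of 6 silica and 3 of 6 air arrays, with overlapping groups too near the floor for a fold.

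Fzd1, a Frizzled receptor, fell in silica lungs, with 8.53, 8.71 and 9.05 in silica lungs, against 9.03, 9.17 and 9.39 in air lungs. Silica rat 2 was just above air rat 2, and the other silica rats were below all air rats. The log2 fold change was -0.43 ± 0.0887 (limma adjusted p 0.00391). The coreceptors Lrp5 and Lrp6 were not called, at -0.22 ± 0.0835 (limma adjusted p 0.0919) and -0.08 ± 0.0749 (limma adjusted p 0.527), and Lrp5 passed without silica rat 6 (adjusted p 0.0318). Fzd5 and Fzd9 lay at 0.04 and 0.01, and Fzd4 and Fzd7 were too dim to test.

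Axin2, a scaffold of the complex that degrades beta-catenin and itself a beta-catenin target, fell. It had 7.87, 8.08 and 8.34 in silica lungs, against 8.19, 8.40 and 8.53 in air lungs, and silica rat 6 lay inside the air range. Its difference was -0.26 ± 0.0807 (limma adjusted p 0.0353), a call lost without silica rat 1, 2, 3 or 4 or air rat 1, 2, 4 or 6, at adjusted p values of 0.0519 to 0.0835. Axin1, the paralog that is not a target gene, had 5.57, 5.82 and 6.07 in silica lungs, against 5.57, 5.84 and 6.12 in air lungs, with the groups covering each other, and a log2 fold change of -0.02 ± 0.110.

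Of 6 secreted Wnt inhibitors 2 were tested and neither was called. Sfrp2, which binds Wnt ligands, spread widely, with 6.61, 7.22 and 7.94 in silica lungs, against 6.05, 6.21 and 7.56 in air lungs. Air rats 1 and 3 lay inside the silica range. Its difference was 0.78 ± 0.272 (limma adjusted p 0.0629), with the largest error of the 58, and it passed without air rat 3 (0.99, adjusted p 0.00993) or without silica rat 6 (0.91, adjusted p 0.031). Dkk3 lay at -0.02 ± 0.127, and Dkk1, Sfrp4 and Sfrp5 were on no lung array.

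Of 41 other listed Wnt pathway genes, 34 were on the array and 20 were tested in lung, 3 higher and 3 lower, with a median of -0.11. Over all tested probes 7.96% were higher and 8.72% lower, with a median of -0.02. Rspo3, an R-spondin that strengthens Wnt signalling at the receptor, had 5.34, 5.47 and 5.78 in silica lungs, against 4.45, 4.79 and 5.17 in air lungs. No silica rat reached down to an air rat, and the difference was 0.72 ± 0.122 (limma adjusted p 0.00111). Air rats 1 and 6, at 4.45 and 4.59, lay below the lowest detected values of the lung arrays, 4.68 to 4.79. The air group was thus near the floor, and the size of the Rspo3 difference is uncertain. Wif1, a secreted Wnt inhibitor, had 8.57, 8.72 and 8.85 in silica lungs, against 9.03, 9.21 and 9.44 in air lungs, also without overlap, and a difference of -0.50 ± 0.0747 (limma adjusted p 0.000497). Lef1, a partner of beta-catenin on DNA, fell (-0.29 ± 0.072, limma adjusted p 0.0131), as did Gsk3b, a kinase that marks beta-catenin for degradation (-0.37 ± 0.099, limma adjusted p 0.0174). Myc, a target with many other inputs, rose (0.35 ± 0.0662, limma adjusted p 0.00241). Ctnnb1, beta-catenin itself, was called at 0.21 ± 0.0691 (limma adjusted p 0.0491), and the call was lost without silica rat 1, 3, 4 or 5 or air rat 1, 3, 4, 5 or 6, at adjusted p values of 0.0529 to 0.113.

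**Figure D2:**
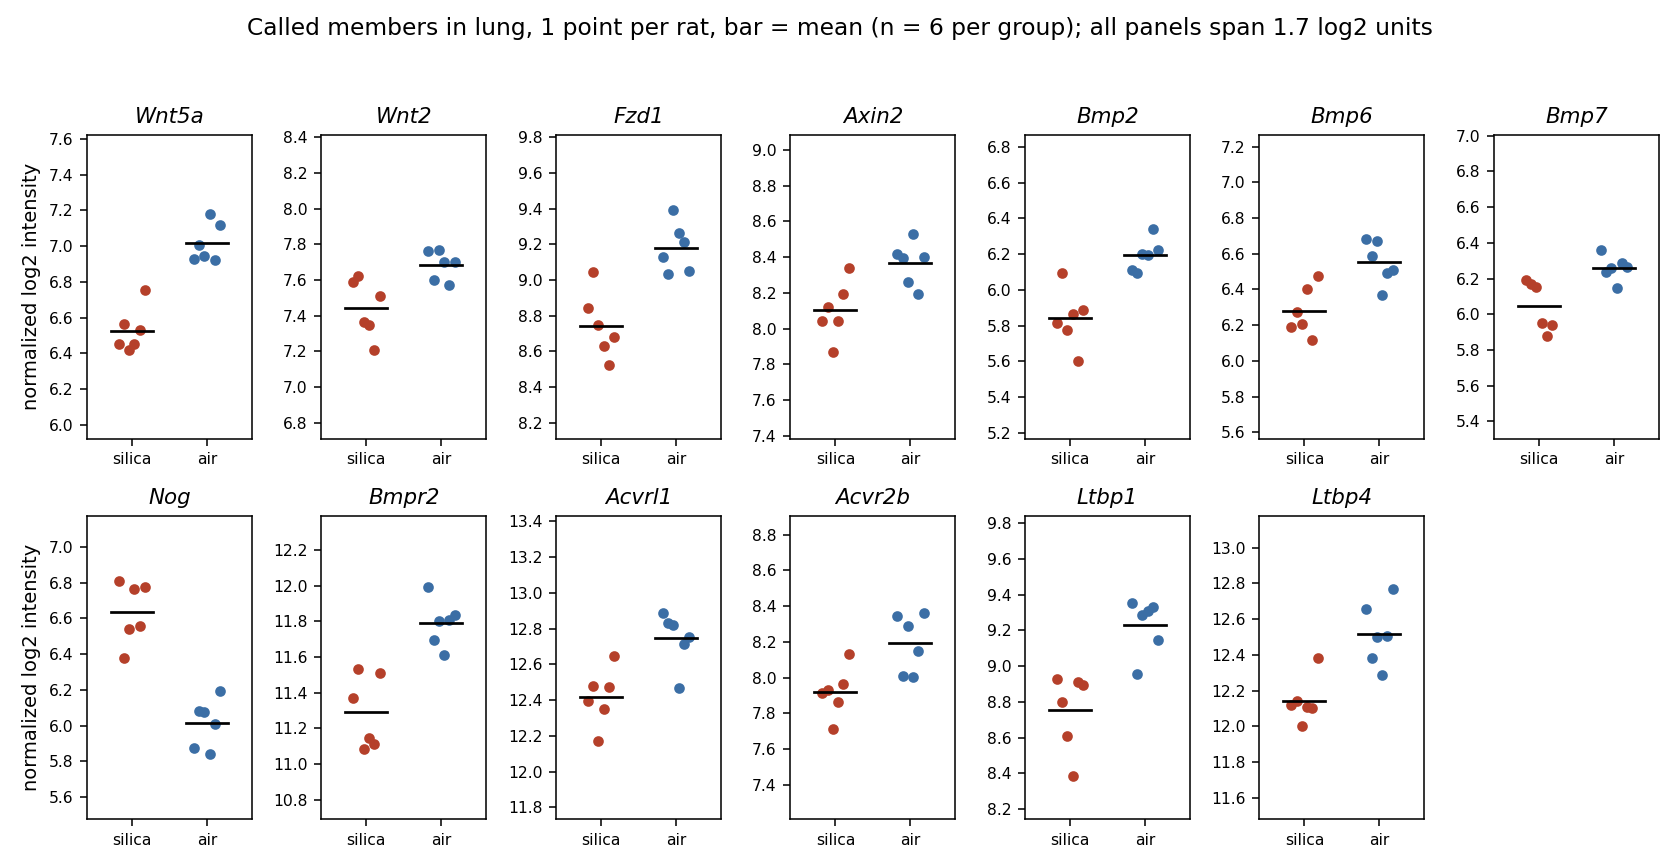
Normalized log2 intensity in lung of the 13 called members, 1 point per rat, silica left and air right, with bars at the means (n = 6 per group) and the same log2 span in each panel. The groups are apart for Wnt5a, Bmpr2, Ltbp1 and Nog and overlap in the other panels. Of the 58 tested members, 3 were apart and lower and 1 apart and higher, against 3.81% and 4.3% of all tested probes.

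All 7 BMP ligands were tested and 3 fell. Bmp2, which can signal through BMPR2, had 5.60, 5.84 and 6.10 in silica lungs, against 6.09, 6.197 and 6.34 in air lungs. Silica rat 2 was level with the lowest air rat, and the other 5 silica rats were below all air rats. The difference was -0.35 ± 0.0766 (limma adjusted p 0.00536). Bmp6, best known for its part in iron control, had 6.12, 6.24 and 6.48 in silica lungs, against 6.37, 6.55 and 6.68 in air lungs, with silica rats 4 and 6 inside the air range. Its difference of -0.27 ± 0.0764 (limma adjusted p 0.0228) lost the call without silica rat 3 or 5 or air rat 1 or 3, at adjusted p values of 0.0527 to 0.0554.

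Bmp7, which opposes TGF-beta in mouse kidney, had 5.88, 6.05 and 6.19 in silica lungs, against 6.15, 6.26 and 6.36 in air lungs, with silica rats 1, 2 and 3 inside the air range. Its difference was -0.21 ± 0.0693 (limma adjusted p 0.0477). The call was lost without silica rat 4, 5 or 6 or air rat 1, 2, 3, 5 or 6, at adjusted p values of 0.0622 to 0.103. Without silica rat 3 the adjusted p rounded to 0.05 and the call was just kept. Bmp7 was called in only 2 of 9 other settings. Bmp4, a ligand of the lung bud, had 9.06, 9.22 and 9.31 in silica lungs, against 9.01, 9.16 and 9.39 in air lungs. The groups covered each other, and the difference was 0.03 ± 0.0757 (limma adjusted p 0.821). Bmp3, Bmp5 and Bmp15 lay between -0.11 and 0.13 and were not called.

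Noggin differed in the other direction from the ligands that fell. Nog had 6.38, 6.66 and 6.81 in silica lungs, against 5.84, 6.04 and 6.19 in air lungs. Every silica rat was above every air rat, as for 4.3% of all tested probes. The log2 fold change was 0.62 ± 0.0859 (limma adjusted p 0.000279), 1.54-fold higher, and it was called in all 12 fits that left out 1 array. Grem1, another BMP antagonist, was near the detection limit and lay at 0.02 ± 0.113. Follistatin (Fst), which binds activins, had 6.84, 7.20 and 7.39 in silica lungs, against 6.78, 7.03 and 7.30 in air lungs, with a difference of 0.10 ± 0.119 (limma adjusted p 0.644). The 3 inhibin beta chains were too dim to test.

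Of 9 BMP and activin receptors 7 were tested, all 7 had a log2 fold change below 0, and 3 were called. Bmpr2, the type II receptor altered in heritable pulmonary arterial hypertension, had 11.09, 11.26 and 11.54 in silica lungs, against 11.61, 11.80 and 11.99 in air lungs. No silica rat reached an air rat, and silica rats 3, 4 and 5 were the lowest. The difference was -0.50 ± 0.0932 (limma adjusted p 0.00237). Acvrl1, the endothelial type I receptor also called ALK1, had 12.17, 12.43 and 12.64 in silica lungs, against 12.47, 12.79 and 12.89 in air lungs. Air rat 4 was below 3 silica rats, and the other air rats were above all silica rats. The difference was -0.33 ± 0.0859 (limma adjusted p 0.017).

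Acvr2b, a type II receptor for activins, had 7.71, 7.92 and 8.13 in silica lungs, against 8.01, 8.22 and 8.36 in air lungs, with silica rat 6 inside the air range. Its row is an average of several probes, by its detection p. The difference was -0.27 ± 0.0847 (limma adjusted p 0.0382), and the call was lost without silica rat 1, 2, 3, 4 or 5 or air rat 1, 3, 5 or 6, at adjusted p values of 0.0544 to 0.0913. The type I BMP receptors Acvr1 and Bmpr1a lay at -0.17 ± 0.063 (limma adjusted p 0.0721) and -0.20 ± 0.0781 (limma adjusted p 0.103), and Bmpr1a passed without silica rat 6 (adjusted p 0.047). Acvr2a and Acvr1c were dim, at -0.11 ± 0.0934 and -0.04 ± 0.108.

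None of the 9 genes named for TGF-beta was called in lung. Tgfb1, the isoform best known in fibrosis, had 9.97, 10.32 and 10.54 in silica lungs, against 9.77, 9.90 and 10.24 in air lungs. Silica rats 1, 2 and 3 lay below air rat 2. The difference was 0.30 ± 0.111 (limma adjusted p 0.0799), and it passed without silica rat 2 (0.0427), silica rat 3 (0.0441) or air rat 2 (0.0407). Tgfb2 lay at 0.00 ± 0.0613 and Tgfb3 at -0.07 ± 0.132. Of the receptors, Tgfbr1 lay at 0.21 ± 0.08 (limma adjusted p 0.0934), Tgfbr2 at -0.11 ± 0.0928 and the coreceptor Tgfbr3 at -0.15 ± 0.111. Tgfb1i1, a focal adhesion protein, lay at -0.17 ± 0.0596 (limma adjusted p 0.0633), and the matrix protein Tgfbi and the receptor-associated Tgfbrap1 at -0.08 ± 0.0971 and 0.00 ± 0.103.

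All 4 LTBPs had a log2 fold change below 0, and 2 fell. Ltbp1, which ties latent TGF-beta to matrix fibrils, had 8.39, 8.85 and 8.93 in silica lungs, against 8.95, 9.29 and 9.36 in air lungs. The groups were apart by a small gap between silica rat 1 and air rat 2. The difference was -0.48 ± 0.0997 (limma adjusted p 0.00458). Ltbp4, whose loss enlarges air spaces in mice, had 12.00, 12.11 and 12.38 in silica lungs, against 12.28, 12.50 and 12.77 in air lungs. Silica rat 6 was above the other 5 silica rats and inside the air range, and the difference was -0.37 ± 0.0863 (limma adjusted p 0.00786). Ltbp3 had 7.47, 7.67 and 8.03 in silica lungs, against 7.70, 8.07 and 8.24 in air lungs and lay at the threshold, -0.33 ± 0.111 (limma adjusted p 0.0521). It passed without silica rat 5 (0.0449), silica rat 6 (0.0167) or air rat 4 (0.0194), and in 6 of 9 other settings. Ltbp2, which does not bind latent TGF-beta, lay at -0.07 ± 0.0758.

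No SMAD and no ID gene was called. Smad4, the shared partner of the receptor-activated SMADs, had 11.27, 11.32 and 11.48 in silica lungs, against 11.26, 11.50 and 11.55 in air lungs, overlapping, with a difference of -0.10 ± 0.0665 (limma adjusted p 0.366). Smad6, an inhibitory SMAD of the BMP branch, lay at -0.21 ± 0.120 (limma adjusted p 0.268), Smad1 and Smad5 of the BMP branch at -0.06 ± 0.095 and 0.04 ± 0.0864, and Smad2 of the TGF-beta branch at 0.01 ± 0.0869. Smad3 was on no lung array. Id2, a target of BMP signalling, had 11.28, 11.50 and 11.63 in silica lungs, against 11.20, 11.40 and 11.49 in air lungs, also overlapping, with a difference of 0.11 ± 0.0702 (limma adjusted p 0.341). Id1 and Id3 lay at -0.04 ± 0.0835 and -0.20 ± 0.0869 (limma adjusted p 0.142), and the sign of Id1 turned without silica rat 3 or air rat 1. Bmp1, a protease of procollagen, and Bmp2k, a kinase, carry the name without being ligands and lay at 0.19 ± 0.112 and 0.00 ± 0.0693.

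Smad7, the inhibitory SMAD that TGF-beta induces, is listed under the older symbol Madh7 and so falls outside the rule, and it was looked up after other values were seen. It averaged 8.84 ± 0.11 in silica lungs and 9.05 ± 0.042 in air lungs (SD, n = 6 each), a difference of -0.21 ± 0.060 (limma adjusted p 0.0249). The call was lost without silica rat 3 (0.0633), silica rat 4 (0.058) or air rat 3 (0.0512).

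Of 47 other listed BMP and TGF-beta pathway genes, 41 were on the array and 26 were tested in lung, 1 higher and 3 lower, with a median of 0.01. Over all tested probes 7.96% were higher and 8.72% lower, 16.7% in all, so the list was not called more often than other probes. Gdf15, a family member released under cell stress, rose by 0.73 ± 0.132 (limma adjusted p 0.00172), with air rat 6 inside the silica range. Fstl1, a secreted follistatin-like protein, fell (-0.37 ± 0.0806, limma adjusted p 0.00537), with every silica rat below every air rat. Bambi, a decoy receptor without a kinase, and Nbl1, a BMP antagonist, also fell, at -0.35 ± 0.0884 (limma adjusted p 0.0142) and -0.27 ± 0.0737 (limma adjusted p 0.0191).

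Of 18 listed genes that TGF-beta or BMP induces, 16 were tested in lung and 3 were lower, with a median of -0.10. Over all tested probes 8.72% were lower. The matrix protein Postn fell (-0.43 ± 0.09, limma adjusted p 0.00457), as did the matricellular Ccn2 (-0.34 ± 0.0799, limma adjusted p 0.0093). Col1a2, a collagen I chain, was called at -0.22 ± 0.0636 (limma adjusted p 0.0247) and lost the call without silica rat 3 or 4 or air rat 3, 5 or 6, at adjusted p values of 0.0523 to 0.0619.

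**Figure D3:**
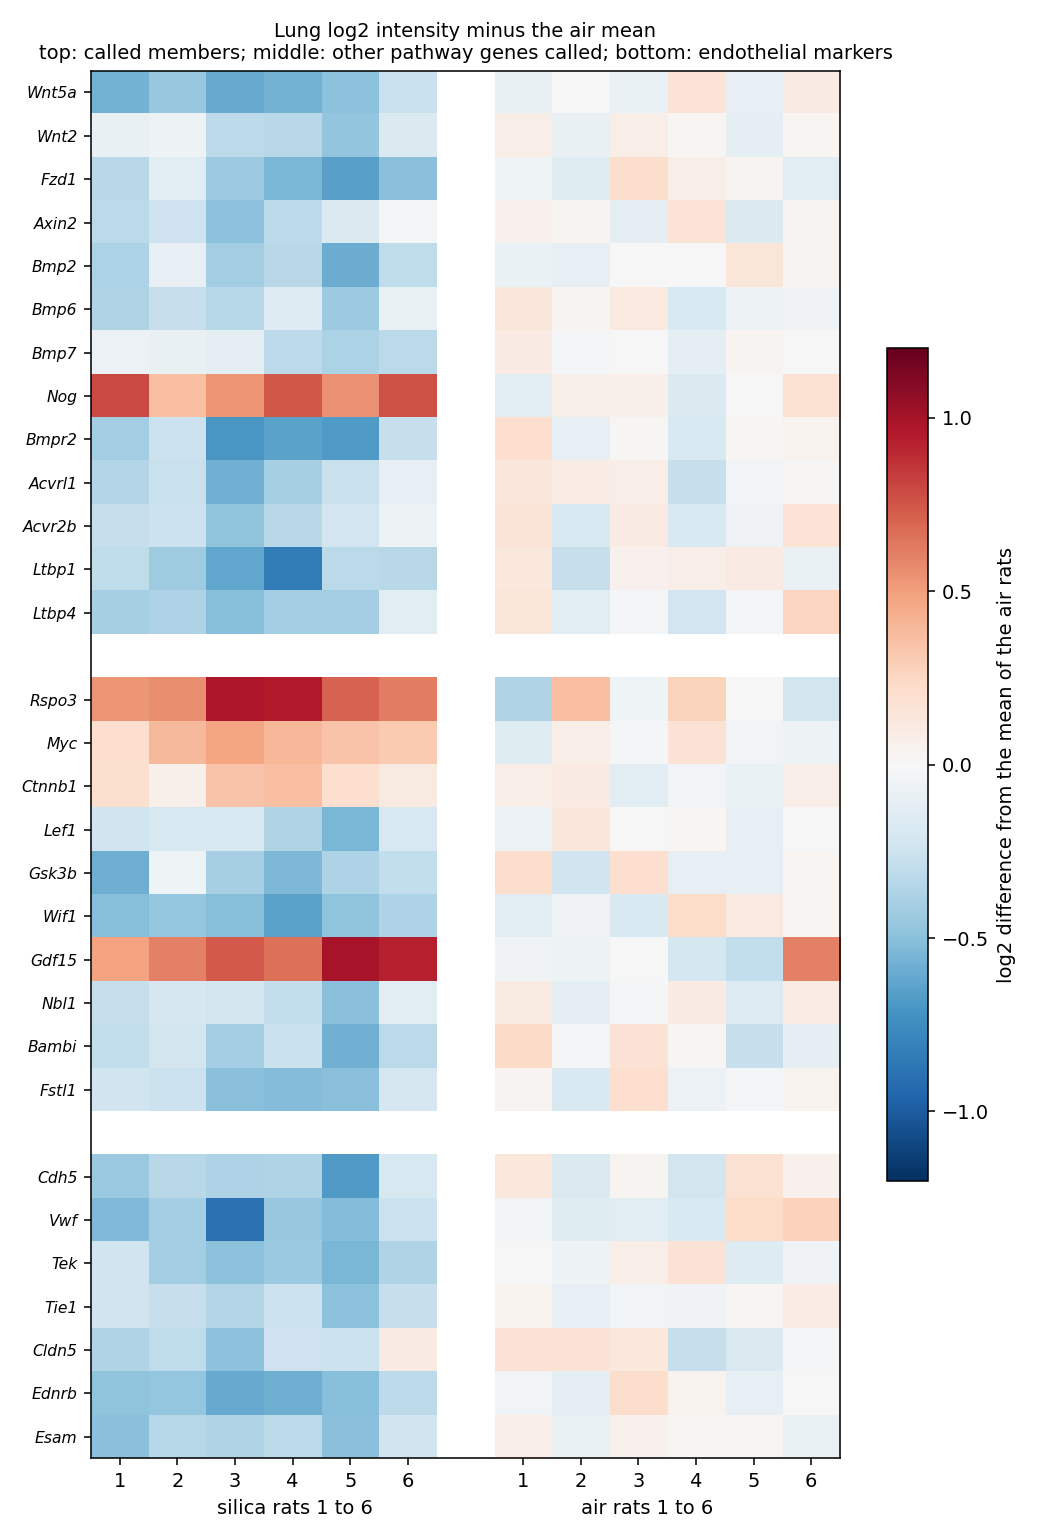
Lung log2 intensity of each rat minus the mean of the 6 air rats, silica rats left and air rats right, for the 13 called members, the 10 called genes of the other Wnt, BMP and TGF-beta pathway lists and 7 endothelial markers; blue is lower and red higher. Silica rats 3, 4 and 5 are the lowest for Bmpr2, and silica rat 6 is the highest silica rat for Axin2, Acvrl1 and Ltbp4.

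Markers of lung cell types also differed between the groups, some lower and some higher in silica lungs. Over all tested probes 8.72% were lower and 7.96% higher. Of 7 tested endothelial markers 6 were lower, Vwf, Ednrb, Tek, Cdh5, Esam and Tie1, with a median log2 fold change of -0.40. Their summed linear signal was 14518 to 19735 in silica lungs, against 20059 to 23024 in air lungs, and none of the 7 was undetected throughout. Beside them, the endothelial receptor Acvrl1 lay at -0.33 and Bmpr2 at -0.50. Of 8 fibroblast markers 3 were lower, Pdgfra, Tcf21 and Col1a2, and the sum was 17526 to 21978 in silica lungs, against 21594 to 24426 in air lungs. Of 6 alveolar type 1 markers 4 were lower, with a sum of 22060 to 23671 in silica lungs, against 25459 to 27602 in air lungs, and 3 of 8 alveolar type 2 markers were higher. Of 6 macrophage markers 4 were higher, with a sum of 18867 to 26328 in silica lungs, against 10469 to 15724 in air lungs. All 5 tested monocyte and neutrophil markers were higher, with a sum of 3166 to 5901 in silica lungs, against 1607 to 2418 in air lungs, and S100a9 was on no array. Of 6 T cell markers 2 were higher, Cd3e and Cd3d. Platelet markers were lower in 4 of 5, red cell and reticulocyte markers in 4 of 7, smooth muscle markers in 1 of 5 (Smtn) and mesothelial markers in 1 of 2 (Krt19). No marker was called among 5 tested airway, 3 B cell, 5 NK cell and 3 atrial heart muscle markers. The atrial sum varied widely between rats, 68.2 to 4130 in silica lungs and 44.9 to 5457 in air lungs. Of the genes listed for handling, 3 of 7 were higher, Atf3, Gapdh and Dnajb1. Col1a2 is also in the list of induced genes. The part of these cell types and of handling in the members' differences was not tested.

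In blood no member was called, of 19 tested. Over all 7864 blood probes 0.0509% were called, 4 in all and all higher in silica blood. No member had an unadjusted p under 0.05, against 8.77% of all probes (690), and none had separate groups, against 0.216% of probes with every silica rat lower and 0.381% with every silica rat higher. Without the 3 arrays that stood apart, 2 probes and no member were called. The median over the 19 was 0.06, and 13 were above 0.

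Tgfb1, which platelets and leukocytes carry, had 9.38, 9.50 and 9.86 in silica blood, against 8.75, 9.35 and 9.67 in air blood, overlapping, with a difference of 0.24 ± 0.143 (limma adjusted p 0.699). Id2 had 9.95, 10.41 and 10.95 in silica blood, against 9.94, 10.22 and 10.79 in air blood and a difference of 0.20 ± 0.175 (limma adjusted p 0.853), and Id1 and Id3 lay at 0.21 ± 0.112 and -0.05 ± 0.116. Smad4 had 8.99, 9.08 and 9.29 in silica blood, against 8.84, 9.10 and 9.25 in air blood, a difference of 0.06 ± 0.0979 (limma adjusted p 0.959). These brightest members of their families overlapped between the groups throughout.

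Of the 13 genes called in lung, 4 were tested in blood. Bmp7 had 4.84, 5.21 and 5.64 in silica blood, against 5.05, 5.28 and 6.07 in air blood, the largest difference in size of the 19, -0.29 ± 0.178 (limma adjusted p 0.735). Axin2 lay at 0.22 ± 0.238 (limma adjusted p 0.904), Ltbp1 at -0.20 ± 0.142 (limma adjusted p 0.799) and Acvrl1 at 0.22 ± 0.109 (limma adjusted p 0.585). Nog, Wnt5a, Bmpr2 and Fzd1 were on no blood array. The Wnt receptor Fzd9 lay at 0.21 ± 0.141, the ligand Wnt10b at -0.14 ± 0.126 and Bmp3 at 0.04 ± 0.107. Bmp2 was detected on 3 of 6 silica and 0 of 6 air arrays, and Wnt1 on 0 of 6 silica and 3 of 6 air arrays, too near the floor for a fold. Of the other pathway lists 11, 10 and 5 genes were tested in blood, and none was called.

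**Figure D4:**
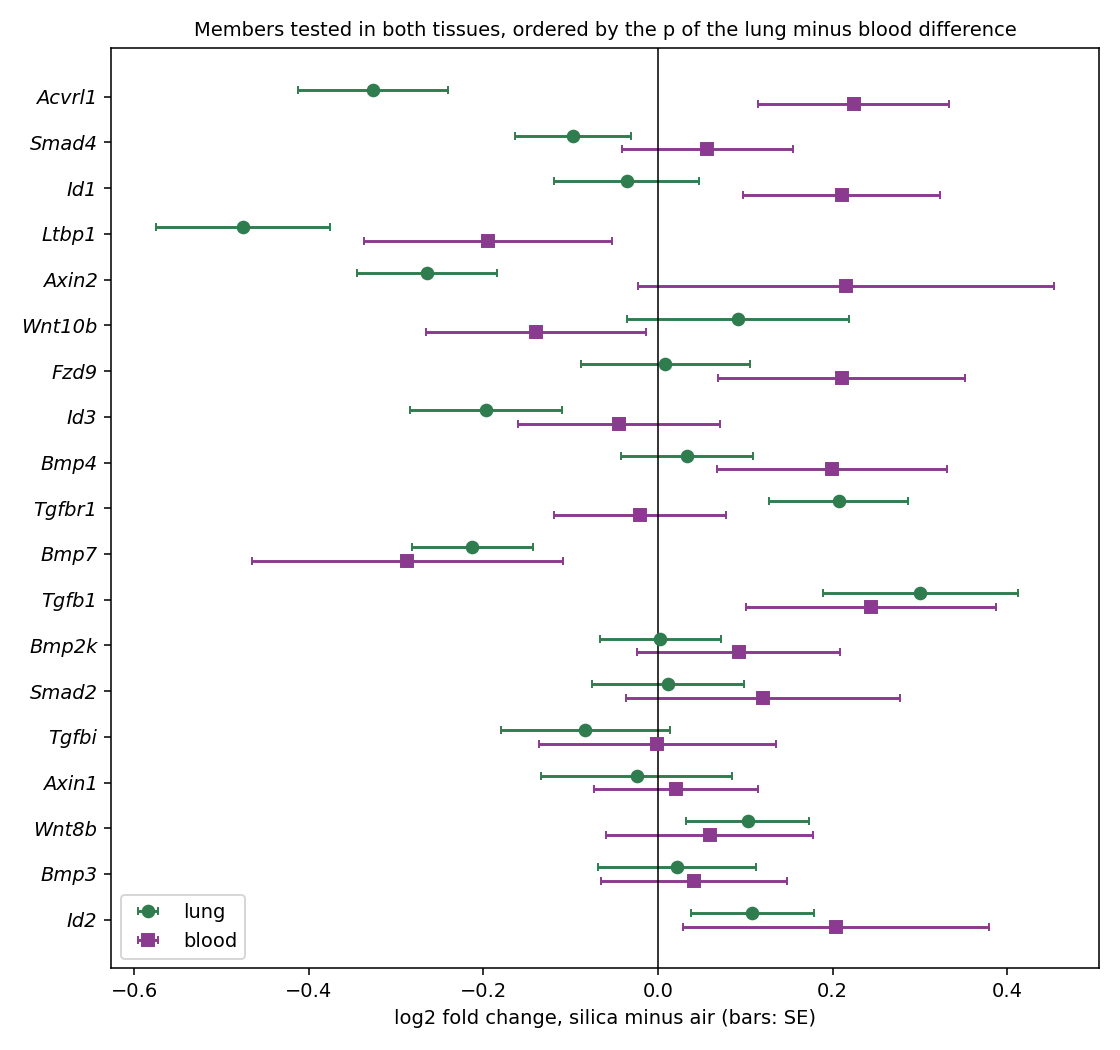
Log2 fold change, silica minus air, of the 19 members tested in both tissues, lung as circles and blood as squares, with standard errors (n = 6 rats per group). Acvrl1 lies at -0.33 in lung and 0.22 in blood.

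The response of lung and blood was compared on each rat's lung value minus its blood value, after joint normalization of the 24 arrays. Of 7594 probes 2.63% were called, and of the 19 members 1 was, Acvrl1. Its lung minus blood value averaged 5.80 in silica rats and 6.54 in air rats, a difference of -0.74 ± 0.145 (limma adjusted p 0.0108). The size depends on the joint normalization. With each tissue normalized on its own, the effects of -0.33 in lung and 0.22 in blood lay closer together, and Acvrl1 was still called. In blood alone Acvrl1 was dim, with 5.38, 5.52 and 5.76 in silica blood, against 4.95, 5.40 and 5.53 in air blood, with overlapping groups. Among the members Smad4 had the next lowest p, at -0.19 ± 0.0879 (limma adjusted p 0.325). For Axin2 the difference was -0.50 ± 0.340 (limma adjusted p 0.554) and for Ltbp1 -0.25 ± 0.168 (limma adjusted p 0.543), so their lung falls were not shown to differ from blood.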

How the data were processed

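Lung and blood RNA of 12 rats was read on 24 arrays. The authors deposited signal intensities without normalization, per the file headers, with a detection p-value against control beads for each. A separate table deposited by the authors holds normalized values: log2 values for blood, and for lung a score on a scale near log2 at high signal and compressed at low signal, by comparison with the raw signals. The submitters' processing notes name BeadStudio, lumi and limma, without versions or roles. The labels give the lung samples the extraction text for blood, with globin mRNA removal.

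From the intensities, normexp background correction (limma 3.58.1, R 4.3.3) used a negative-control mean and SD inferred from the detection p-values. In 631 rows, averages over probes, these lie off the grid that 825 controls give. Including them raised the inferred SD in lung to 83.1 to 136, against 6.13 to 7.21 without them, so they were left out of that step, a choice made after seeing the data. An offset of 16, quantile normalization, log2, lmFit and eBayes followed. The number of arrays limits the precision.

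Members and lists were chosen with earlier results of these data known. Named with values were called members, the brightest tested member of each family, members detected in at least 3 arrays of one group and none of the other, and up to 6 called genes of each other list, except 1 gene of the induced list that is not reported here; further members were named to complete their families. Alternatives covered the background, offset, scaling, filter, array weights, the authors' values, the rat number as a block and leaving out each array. Whether equal rat numbers link a silica rat to an air rat is not known, and the main fit used no such block. Deviations of rats with equal numbers correlated above 0.1 in 1 of 6 lung and 3 of 6 blood pairs, up to 0.472 in blood.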

Additional observations from a re-analysis of the deposited data

Results flagged for a closer look

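Ltbp4 in silica rat 6 lay far from the other silica lungs, at 12.383, against 12.00 to 12.14 in the other 5. Gdf15 in air rat 6 lay far from the other air lungs, at 7.90, against 7.01 to 7.30 in the other 5. They were 2 of 102 groups of 6 checked, where chance picks about 1 in 20. The silica effect on Acvrl1 differed between tissues, as tested on each rat's own arrays. The difference was -0.74 on the log2 scale for lung minus blood after joint normalization. It was smaller with each tissue normalized on its own (-0.33 in lung, 0.22 in blood).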

How the results depend on the processing

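Nog, Wnt5a, Bmpr2, Fzd1, Ltbp1, Bmp2, Ltbp4 and Acvrl1 were called in lung in all 9 other settings and all 12 fits that left out 1 array. Leaving out 1 array gave 7 (without air rat 1) to 14 lower and 1 to 2 higher members in lung, 0 to 29 probes in blood, and 122 to 316 probes in the tissue difference. The replicate block gave 8 lower and 2 higher members in lung, adding Sfrp2 (0.00291) and Ltbp3 (0.0246) and dropping Wnt2, Bmp6, Axin2, Acvr2b and Bmp7 and, outside the members, Smad7, Gsk3b and Ctnnb1, and 0 probes in blood. In blood 0 probes were called with scaling to the 75th percentile, 7 with the authors' deposited values, 0 with the background inferred from all rows and 2 without the 3 arrays that stood apart, and no member in any of these. With the background inferred from all rows, 2 members were lower in the tissue difference, Acvrl1 and Smad4 (adjusted p 0.0309). Without 1 array Id1 in lung ranged over -0.0769 to 0.00332 (0.00135 without air rat 1), and Bmp3 in blood over -0.0238 to 0.0917 (-0.00182 without air rat 1), so their signs reversed. The cause was not tested. Besides the block, Bmp7 was not called with no background correction (0.0649), offset 50, no filter on dim probes, the authors' deposited values, the background from all rows or array weights, at adjusted p values of up to 0.0658. Wnt2 and Acvr2b lost their calls with no filter on dim probes, at 0.0506 and 0.0568. Axin2 kept its call there by a hair, at an adjusted p that rounds to 0.05. Ltbp3 passed with the block and also with no background correction, offset 50, scaling to the 75th percentile, detection on all 12 arrays and array weights, at 0.0262 to 0.0461 without the block. A BeadChip block was not run, since no header names the chip. Dim signal kept 23 members in lung and 62 in blood untested.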
